A study of Mus musculus with 48 samples.

Results

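The histone genes of the mouse heart were followed through 48 RNA-seq libraries. A gene was taken as a member when its symbol began with Hist1h to Hist4h, H2af, H3f3 or H1f, pseudogenes left out, and when it had at least 10 reads in 3 or more libraries of a deposited table. Of 79 such symbols in each table, 29 were kept in the table of 8-week ventricles, 30 in that of 20-week ventricles and 28 in that of cell fractions, out of 31920, 31920 and 31741 genes. In all, 32 genes were kept in at least 1 table and 26 in all 3. By symbol, 6 of 10 linker genes, 18 of 59 core genes and 8 of 10 variant genes were kept in at least 1 table. Near the threshold in the 20-week table, Hist1h4d (highest library 15 reads) and Hist1h4k (34 reads) were kept with 4 libraries at 10 or more reads, while Hist1h2ba, Hist1h3e and Hist1h2bb (10, 11 and 14 reads) had 1 such library each and were not.

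All mice were of the FVB strain. They were wild type or carried PLNR9C, a mutant of phospholamban, a regulator of calcium uptake in cardiac muscle; the mutation is known to cause dilated cardiomyopathy. Each genotype received JQ1 at 50 mg/kg, a small molecule that displaces BET bromodomain proteins from acetylated histones, or vehicle. RNA came from whole left ventricle at 8 weeks of age (labelled as before cardiomyopathy) and at 20 weeks (labelled as cardiomyopathy, wild type included), and from cardiomyocytes and non-myocytes at 16 weeks. The 4 sample types, 2 genotypes and 2 treatments gave 16 groups of 3 libraries, which the study describes as individual biological replicates. The cell fraction data carry the name pooled cell, so a fraction library may hold cells of several hearts. The sources used here do not give the dosing schedule or the number of hearts behind each cell preparation. They also do not give whether both fractions came from the same hearts.

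Histones package DNA. Nucleosomes are built from the core histones H2A, H2B, H3 and H4, and linker histones of the H1 family bind the DNA between them. Most core and linker genes lie in clusters, are transcribed during S phase, and end in a conserved stem-loop in place of a poly(A) tail, so that their mRNA is short-lived outside S phase. Replacement histones, such as H3.3 from H3f3a and H3f3b, H2A.Z from H2afz and H2afv, macroH2A from H2afy and H2afy2, and the linker histone H1f0, are made throughout the cell cycle from polyadenylated mRNA. They supply non-dividing cells, and adult cardiomyocytes seldom divide.

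The clustered Hist1 members lay on chromosome 13 between positions 21750194 and 23934156 of the deposited gene models, the Hist2 members on chromosome 3, and Hist3h2a on chromosome 11; coordinates are on GRCm38/mm10, the build in the submitters' processing notes. The stem-loop was searched for on the sense strand of all GENCODE M21 transcripts as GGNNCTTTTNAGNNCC. It occurred in exons of 15 of the 32 kept members (3 linker genes, 11 core genes and H2afx) and in 0.161% of the 55341 annotated genes. In 11 of the 15 it read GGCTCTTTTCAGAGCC. The sequences below belong to the stem-loop members whose RNA levels carry the results that follow, with the loop and stem in capitals and 5 bases on each side, 5′ to 3′ on the gene's own strand.
H2afx, chr9:44335235-44335260, plus strand: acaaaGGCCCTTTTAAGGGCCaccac
Hist1h1c, chr13:23739507-23739532, plus strand: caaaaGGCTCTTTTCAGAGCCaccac
Hist1h3d, chr13:23576239-23576264, plus strand: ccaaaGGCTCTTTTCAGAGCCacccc
Hist1h4i, chr13:22040961-22040986, minus strand: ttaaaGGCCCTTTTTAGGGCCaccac
Hist3h2a, chr11:58955167-58955192, plus strand: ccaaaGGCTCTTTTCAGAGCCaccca
Hist2h3c1, chr3:96247322-96247347, plus strand: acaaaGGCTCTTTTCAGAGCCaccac
In 13 of the 15 kept genes with a stem-loop the annotated transcript ran on for more than 100 bases past it, and the median over all 15 was 822 bases. Of the 26 stem-loop genes that were not kept, 10 had such a transcript, and the median over all 26 was 48.5 bases. The deposited gene models ran on that far in 11 of 14 kept genes with a comparable model and in 6 of 26 not kept. Those of Hist1h3d and Hist1h4d ended before the stem-loop. Hist1h2bc, an H2B gene (chromosome 13, 23684199 to 23692480, plus strand), had no stem-loop in its annotated transcript although it is a cluster member.

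RefSeq promoters (GRCm38.p6, 250 bases before to 50 bases after the start) were matched for 26 of the 32 members. Both strands were searched for 3 motifs known from histone promoters, none of which contains another. The CCAAT box was searched as CCAAT and was present in 20 of 26 member promoters (76.9%), against 37.4% of the 32851 promoters in the table. The TATA box, searched as TATAAA, was present in 9 (34.6%, against 13.6%). The octamer, searched as ATTTGCAT, was present in 6 (23.1%, against 1.74%). The matches describe these windows and are not evidence of binding. The 3 promoters below are shown because their genes were the most abundant member (H3f3b), a linker gene whose rise differed between the cell fractions (Hist1h1c) and the member that fell most often (H2afy2); motif copies are in capitals.
H3f3b, chr11:116024455-116024754, minus strand: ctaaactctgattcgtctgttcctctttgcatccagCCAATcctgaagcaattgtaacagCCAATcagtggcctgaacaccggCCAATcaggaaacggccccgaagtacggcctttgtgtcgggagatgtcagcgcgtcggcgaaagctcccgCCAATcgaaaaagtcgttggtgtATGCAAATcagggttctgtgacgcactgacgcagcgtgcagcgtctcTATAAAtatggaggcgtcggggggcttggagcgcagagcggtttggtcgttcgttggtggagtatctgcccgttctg
Hist1h1c, chr13:23738557-23738856, plus strand: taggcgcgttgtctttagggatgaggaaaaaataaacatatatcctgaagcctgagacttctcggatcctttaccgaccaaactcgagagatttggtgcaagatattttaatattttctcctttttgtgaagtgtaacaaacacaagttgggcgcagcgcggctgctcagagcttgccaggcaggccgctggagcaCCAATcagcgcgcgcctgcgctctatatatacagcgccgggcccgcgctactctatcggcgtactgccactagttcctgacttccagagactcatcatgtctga
H2afy2, chr10:61783815-61784114, minus strand: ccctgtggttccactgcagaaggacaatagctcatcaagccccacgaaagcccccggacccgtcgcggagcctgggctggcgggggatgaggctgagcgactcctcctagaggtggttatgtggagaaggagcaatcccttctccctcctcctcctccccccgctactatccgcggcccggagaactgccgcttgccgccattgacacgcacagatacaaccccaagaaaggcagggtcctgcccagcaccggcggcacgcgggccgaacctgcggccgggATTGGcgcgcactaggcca
The H3f3b window held 4 CCAAT boxes, at 214, 190, 167 and 97 bases before the start, with the octamer in reverse orientation at 74 and the TATA box at 27. The Hist1h1c window held 1 CCAAT box, 54 bases before the start. The single copy in H2afy2, in reverse orientation, lay 31 bases after the start.

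Per library, the ventricle tables held 16984138 to 27086694 reads in genes, cardiomyocytes 10249780 to 13146653 and non-myocytes 10041094 to 11815003. Members took 0.0245% to 0.0613% of these reads in ventricle. Their share in cardiomyocyte libraries was 0.0266% to 0.0566%, and in those of non-myocytes 0.0467% to 0.114%. Most markers fitted the fraction labels. All 8 cardiomyocyte markers were higher in cardiomyocytes than in non-myocytes (median log2 difference 4.88), and all 8 fibroblast, 7 endothelial and 7 macrophage markers were lower. Of 6 lymphocyte markers 5 were lower and 1 was higher in cardiomyocytes, and so were 5 and 1 of 6 smooth muscle and pericyte markers. Among the fraction libraries, 2 stood apart. The wild type JQ1 non-myocyte library 3 had summed red cell markers of 1381 CPM (read counts scaled to a common library size), against 46.3 and 383 in its group. The PLNR9C JQ1 cardiomyocyte library 2 had the highest fibroblast markers of all cardiomyocyte libraries (4812 CPM) and the lowest cardiomyocyte markers (44190 CPM). The member calls that change without either of them are named beside the counts.

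H3f3b was the most abundant member per length in every sample type. On the deposited RPKM scale, which is read counts divided by gene length and library size, it had means over 12 libraries of 46.4 (8 weeks), 54.9 (20 weeks), 43.2 (cardiomyocytes) and 192 (non-myocytes). H3f3a, which encodes the same H3.3 protein, averaged 38.5, 31.99, 31.5 and 53.1 RPKM in that order, and H1f0 averaged 36.2, 26.9, 28.3 and 44.6. Among core genes Hist1h2bc was highest, at 24.8, 23.5, 33.4 and 30.2 RPKM. Hist1h1c, which encodes H1.2, averaged 20.9, 24.7, 24.3 and 19.4. H2afv averaged 15.6 to 17.3 over the 4 sample types, H2afz 8.30 to 31.4 and H2afx 6.25 to 10.3 RPKM, the upper ends for H2afz and H2afx being in non-myocytes, where H2afz was above Hist1h2bc. In PLNR9C vehicle hearts, the core share of the summed member RPKM was 17.4% ± 1.39 (SD, n = 3) at 8 weeks and 15.4% ± 0.807 at 20 weeks, against 23.6% ± 1.57 for cardiomyocytes and 7.84% ± 1.44 for non-myocytes.

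JQ1 raised the summed RNA of linker, core and variant members in each of the 4 sample types and in both genotypes. The sums below are CPM scaled by the trimmed mean of M-values (TMM) within a sample type. In 8-week PLNR9C ventricles the linker sum was 97.3, 85.6 and 91.9 with vehicle and 143, 173 and 143 with JQ1, the core sum 27.7, 26.1 and 28.1 against 71.8, 65.0 and 63.7, and the variant sum 178, 154 and 168 against 282, 306 and 275. In 20-week PLNR9C ventricles the core sum was 21.9, 22.6 and 21.6 with vehicle and 59.3, 76.25 and 65.7 with JQ1. In wild type ventricles of the same age it was 26.7, 24.2 and 28.2 against 66.75, 52.0 and 47.6. No JQ1 library fell inside the range of its vehicle group for any class, sample type or genotype.

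The size of the rise differed by class and cell fraction. Core sums with JQ1 were 2.45 times the vehicle mean in PLNR9C and 1.86 times in wild type at 8 weeks, and 3.04 and 2.10 times at 20 weeks. Linker sums were 1.67 and 1.72 times the vehicle mean at 8 weeks and 1.91 and 1.65 times at 20 weeks, and variant sums 1.72, 1.75, 1.90 and 1.68 times in the same order. Within each genotype, non-myocytes had the highest ratio of every class: core 3.91 in PLNR9C and 2.67 in wild type, linker 2.49 and 2.36, and variant 2.11 and 1.935. Cardiomyocytes had the lowest linker ratios, 1.37 and 1.51, and the lowest core ratios, 1.55 and 1.36, with variant ratios of 1.795 and 1.57. The core share of member RPKM in PLNR9C was 25.2% ± 1.35 with JQ1 at 8 weeks, 23.7% ± 1.82 at 20 weeks, 15.5% ± 4.94 in non-myocytes and 23.5% ± 3.59 in cardiomyocytes (SD, n = 3), so that only the cardiomyocyte share lay within 1 SD of its vehicle value. These sums describe the classes and were not tested as such. The core sums and shares include low genes, named below, that reached 10 reads in JQ1 libraries only. They were not repeated without those genes, so part of the core rise is built in. In bulk samples, fewer cells of a type and less RNA per cell cannot be told apart.

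**Figure D1:**
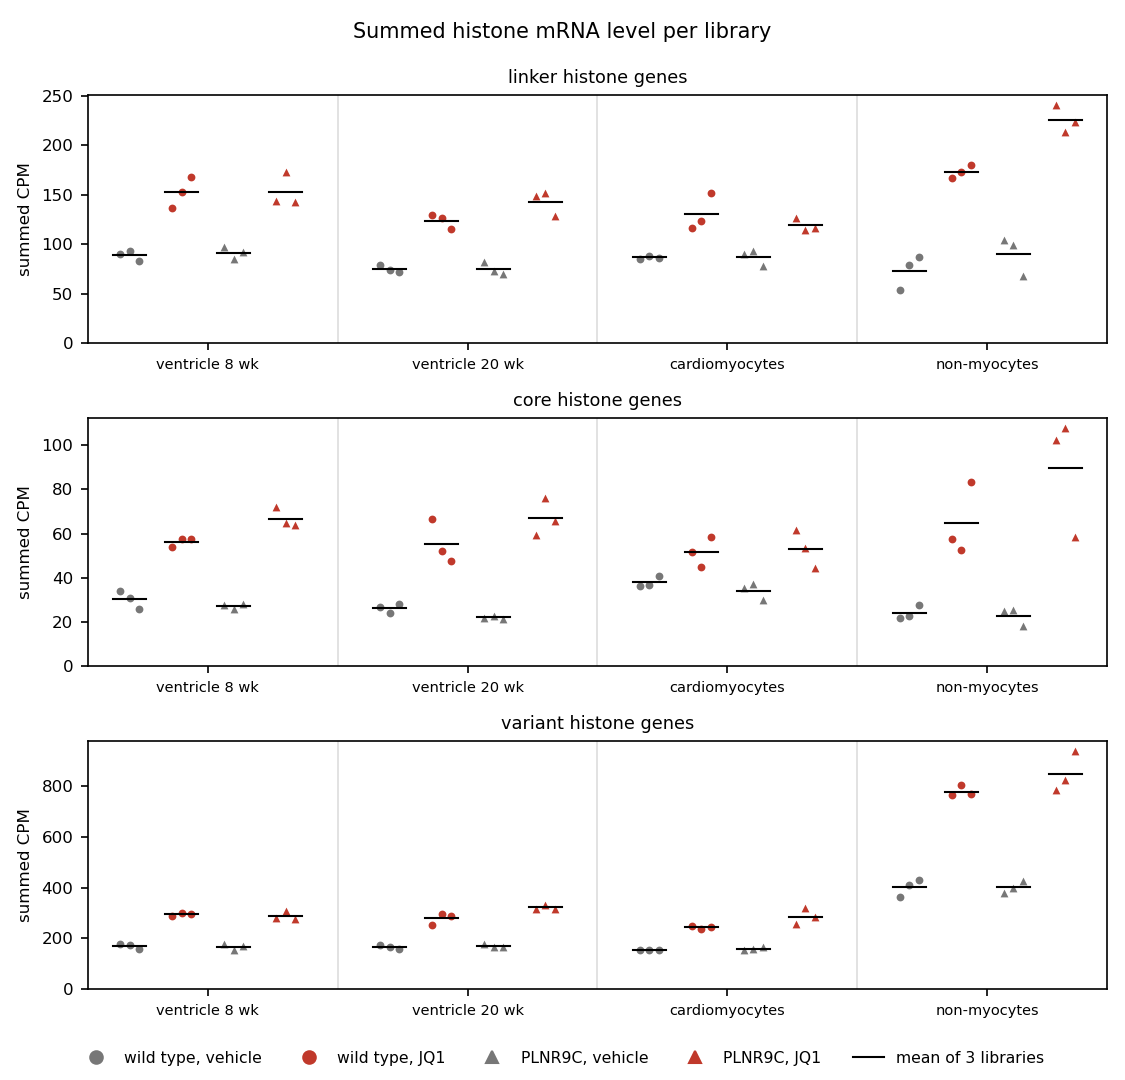
Summed TMM-scaled CPM of linker, core and variant histone genes (y axes from 0) in the 16 groups (x axis), 1 point per library. In every pair of groups the 3 JQ1 points lie above the 3 vehicle points, and the non-myocyte core sums range from 18.3 with vehicle to 108 with JQ1. The core sums include some genes that reached 10 reads in JQ1 libraries only.

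Tested gene by gene with edgeR's quasi-likelihood test (adjusted p under 0.05 over all genes), most members rose with JQ1 in ventricle and non-myocytes. At 8 weeks, 18 of 28 tested members rose and 1 fell in PLNR9C, where 33.1% of all genes passed in either direction (15.5% higher, 17.7% lower). In wild type 16 rose and 2 fell (29.8% of all genes; 14.3% higher, 15.4% lower). At 20 weeks 23 of 30 rose and 1 fell in PLNR9C (31.9%; 15.9% higher, 16.1% lower) and 17 rose in wild type with none falling (27.2%; 12.3% higher, 14.9% lower). The median member log2 fold change was 1.08 and 0.74 at 8 weeks and 1.36 and 0.89 at 20 weeks, while the median of all tested genes was within 0.01 of 0. In non-myocytes 19 of 26 rose and 1 fell in PLNR9C (36.2% of all genes; 16.7% higher, 19.5% lower), with a median of 1.14, and 17 rose and 2 fell in wild type (38% of all genes; 18% higher, 20% lower), with a median of 1.05. Without the wild type JQ1 non-myocyte library 3, the wild type count was 12 up and 1 down: Hist1h2ba, Hist1h4k, Hist2h2aa1, Hist2h2bb, Hist2h2be and Hist2h3c1 no longer passed (edgeR adjusted p from 0.0513 to 0.233), nor did Hist1h2bg in PLNR9C (0.0535).

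Some members reached the minimum of 10 reads in JQ1 libraries only, so their rise was built into their selection. They were Hist1h4k in each table, Hist1h3g and Hist1h4d at 20 weeks, and Hist1h2ba and Hist1h3d in the fractions; in those tables no vehicle library had more than 7 reads of them. Without them, 21 of 27 members rose and 1 fell in PLNR9C at 20 weeks and 15 of 27 rose in wild type, and in non-myocytes 16 of 23 rose and 1 fell in PLNR9C and 14 rose and 2 fell in wild type. In cardiomyocytes 6 of 21 then rose in PLNR9C and 7 of 21 in wild type. At 8 weeks Hist1h4k was too low to be tested. Other members reached 10 reads in fewer than 3 vehicle libraries, so JQ1 libraries were also needed to keep them. At 8 weeks these were Hist1h1d, Hist1h2af, Hist1h2bg, Hist1h3g and Hist2h2bb. At 20 weeks they were Hist1h1d, Hist1h2ac, Hist1h2af, Hist1h2bg, Hist1h3d, Hist2h2aa1 and Hist2h2bb, and in the fractions Hist1h2bg and Hist2h2aa1. They stay in all counts given here, so part of those rises may also be built in.

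Cell type markers also moved with JQ1 in ventricle. In PLNR9C at 20 weeks 6 of 8 cardiomyocyte markers rose (sums of 37810 to 42780 CPM with vehicle and 50140 to 54650 with JQ1), as did 2 of 7 macrophage markers (571 to 780.0 against 867 to 930). At 8 weeks 4 of 8 cardiomyocyte markers rose in PLNR9C (55720 to 59910 against 65860 to 72810), and in wild type 2 of 8 fibroblast markers rose (2062 to 2458 against 2776 to 3038). In wild type at 20 weeks 2 of 8 cardiomyocyte markers rose (70730 to 81440 against 87410 to 96220) and 2 of 7 endothelial markers fell. None of the sums given here overlapped between vehicle and JQ1, and their part in the histone changes was not tested.

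In cardiomyocytes fewer members passed. In each genotype 7 of 22 tested members rose and none fell, against 10.5% of all genes called in PLNR9C (6.14% higher, 4.33% lower) and 3.63% in wild type (1.7% higher, 1.93% lower). The 6 genes called in both genotypes were H1f0, H2afx, H2afz, H3f3a, H3f3b and Hist1h2bc; Hist1h3d passed in PLNR9C and Hist1h1c in wild type. Without PLNR9C JQ1 cardiomyocyte library 2, 6 passed in PLNR9C, Hist1h3d being lost (edgeR adjusted p = 0.0762). The wild type count was 3 or 4 without any one of the 6 wild type cardiomyocyte libraries, PLNR9C JQ1 library 3 or PLNR9C vehicle library 2. Markers of other cells also moved in these preparations. The 8 fibroblast markers summed to 430 to 532 CPM with vehicle and 786 to 1116 with JQ1 in wild type, and 1216 to 1634 against 1577 to 4812 in PLNR9C. Of these, 1 of 8 (Gsn) passed the test in each genotype. In PLNR9C 2 of 7 endothelial markers (sums of 386 to 447 CPM against 523 to 1021) and 1 of 6 smooth muscle and pericyte markers (511 to 641 against 538 to 873) also rose. The part of these markers in the histone changes was not tested.

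Those same 6 genes, H1f0, H2afx, H2afz, H3f3a, H3f3b and Hist1h2bc, rose in all 8 JQ1 comparisons, out of 20 members tested in all 8. In fits with a library left out, H2afx, H3f3b and Hist1h2bc kept 96 of 96 calls. H1f0 kept 94, H3f3a 88 and H2afz 87, and all calls lost were in wild type cardiomyocytes. Of all 13694 genes tested in all 8, 1.07% rose in each. Each comparison used its own vehicle and JQ1 libraries. Both genotypes of a sample type shared a fit and its scaling, and the fractions may share hearts, so the comparisons are not fully independent. Over all members and JQ1 comparisons there were 212 tests, of which 124 were rises and 7 were falls, and 113 and 7 of 198 without the members kept only through JQ1 libraries. Over all genes 12.7% of such tests were rises and 13.9% were falls. The falls were 5 for H2afy2 and 2 for Hist2h2be.

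**Figure D2:**
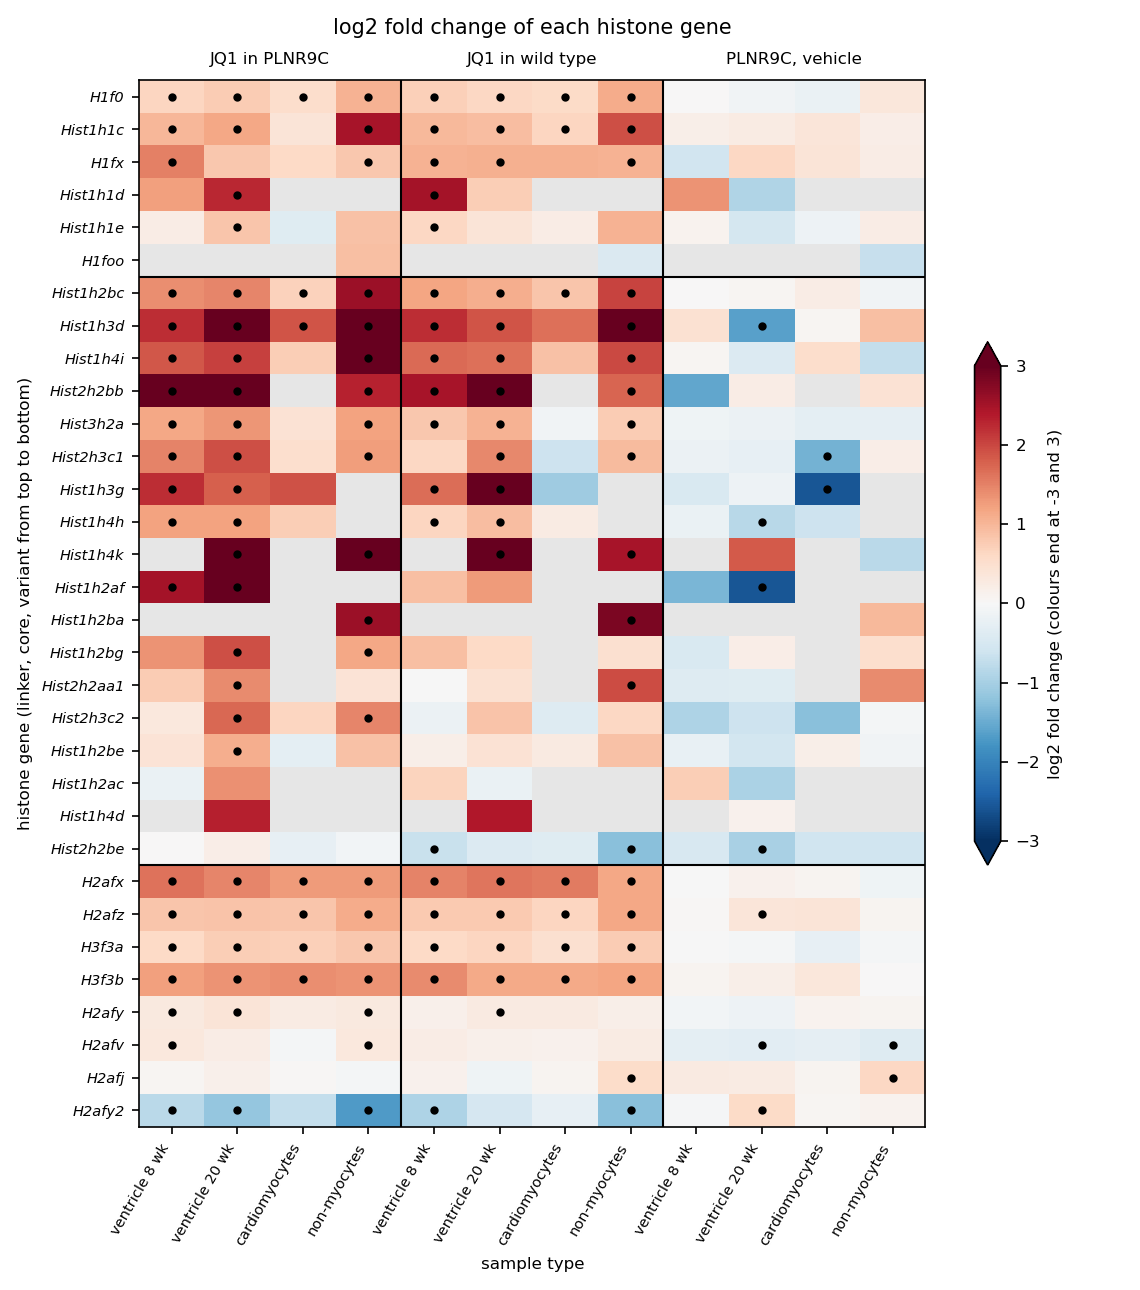
Log2 fold changes (colour, ending at 3 in both directions) of the 32 histone genes (rows) for JQ1 in PLNR9C, JQ1 in wild type and PLNR9C against wild type with vehicle, each in 4 sample types (columns); black dots mark an edgeR adjusted p under 0.05 and grey cells were not tested. The JQ1 columns hold 124 rises and 7 falls, and the genotype columns 3 rises and 8 falls.

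Among linker genes, H1f0 (chromosome 15, 79028212 to 79030500, plus strand) encodes the H1 type of differentiated, non-dividing cells. At 8 weeks it had 68.2, 59.0 and 65.9 CPM in PLNR9C vehicle hearts and 96.9, 111 and 93.1 with JQ1, and 65.9, 63.5 and 63.5 against 96.3, 103 and 115 in wild type. In non-myocytes it had 85.8, 83.85 and 55.4 CPM with vehicle and 162, 149.9 and 149 with JQ1 in PLNR9C. The groups did not overlap in any of these pairs. Its log2 fold changes over the 8 comparisons ran from 0.52 ± 0.10 (SE; cardiomyocytes of PLNR9C, edgeR adjusted p = 0.00998) to 1.12 ± 0.18 (non-myocytes of wild type, edgeR adjusted p = 0.000433).

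Hist1h1c encodes H1.2 and is the most abundant clustered linker gene. In non-myocytes it had 13.5, 12.2 and 9.27 CPM with vehicle and 73.0, 56.1 and 66.5 with JQ1 in PLNR9C, and 6.83, 11.3 and 12.2 against 34.5, 33.9 and 47.15 in wild type. In PLNR9C ventricles at 20 weeks it had 29.8, 26.2 and 24.65 CPM against 63.2, 62.8 and 53.7. All JQ1 libraries of these pairs lay above their vehicle libraries. The log2 fold change was 2.48 ± 0.21 in PLNR9C non-myocytes and 1.93 ± 0.21 in wild type non-myocytes (edgeR adjusted p = 4.92e-06 and 2.8e-05). In cardiomyocytes it was 0.38 ± 0.16 in PLNR9C (adjusted p = 0.158) and 0.65 ± 0.17 in wild type (adjusted p = 0.0499), by the same test, and the latter call was kept in 3 of 12 fits with a library left out. The PLNR9C cardiomyocyte libraries had 40.0, 36.7 and 28.4 CPM with vehicle and 49.96, 40.1 and 46.6 with JQ1, so that the lowest JQ1 library lay just above the highest vehicle library.

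The other linker genes were low. H1fx, which encodes a linker histone made outside S phase, rose in 5 of 8 comparisons, by 1.52 ± 0.31 on the log2 scale in 8-week PLNR9C ventricles (0.538, 0.555 and 0.774 CPM against 2.14, 1.65 and 1.496). H1fx overlaps Gm5577 on the other strand, and the counting is not stated to use strand, so reads of the pair cannot be told apart. Hist1h1d rose in 2 of 4 comparisons and Hist1h1e in 2 of 8. H1foo, the H1 of oocytes, was kept only in the fraction table, with at most 23 reads in a library, and passed in neither of its 2 JQ1 tests.

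Among core genes, Hist1h2bc, the most abundant of them, rose in every comparison. It had 8.28, 7.18 and 6.81 CPM in PLNR9C vehicle non-myocytes and 48.6, 53.9 and 28.7 with JQ1. In wild type non-myocytes it had 7.81, 8.04 and 8.06 against 28.6, 23.1 and 45.4. In cardiomyocytes it had 18.8, 20.6 and 19.0 against 36.0, 30.9 and 27.4 in PLNR9C, and 16.1, 17.2 and 16.75 against 31.5, 27.2 and 30.8 in wild type. No groups overlapped, and among JQ1 non-myocytes the PLNR9C library 3 was the lowest and the wild type library 3 the highest of its group. The log2 fold change ranged from 0.69 ± 0.12 (PLNR9C cardiomyocytes) to 2.56 ± 0.27 (PLNR9C non-myocytes; edgeR adjusted p = 0.00601 and 2.65e-05), with 1.38 ± 0.11 and 1.18 ± 0.12 at 8 weeks and 1.46 ± 0.12 and 1.10 ± 0.12 at 20 weeks in PLNR9C and wild type. Hist1h2bc overlaps Gm9998 on the other strand.

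Hist1h4i, an H4 gene, rose in 6 of 8 comparisons. At 20 weeks it had 1.11, 0.734 and 1.36 CPM in PLNR9C vehicle ventricles and 4.30, 4.898 and 4.11 with JQ1. In PLNR9C non-myocytes it had 0.610, 0.455 and 0.378 against 5.96, 4.46 and 2.67, a log2 fold change of 3.16 ± 0.38 (edgeR adjusted p = 3.42e-05). In cardiomyocytes it had 1.61, 3.02 and 1.56 against 4.21, 3.16 and 3.06 in PLNR9C, where the change of 0.73 ± 0.31 did not pass (edgeR adjusted p = 0.146). Hist3h2a, an H2A gene whose model overlaps that of Trim17, also rose in 6 of 8, both cardiomyocyte comparisons excepted, with 4.62, 4.45 and 3.94 CPM against 11.3, 11.98 and 9.495 in PLNR9C at 20 weeks.

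Hist1h3d, an H3 gene, had the largest fitted change of any member, from a few reads per vehicle library. In PLNR9C ventricles at 20 weeks it had 3 reads in each of the 3 vehicle libraries and 69, 155 and 103 with JQ1. In non-myocytes it had 5, 4 and 2 reads against 74, 75 and 25 in PLNR9C, and 3, 1 and 2 against 11, 14 and 34 in wild type. It passed in 7 of 8 comparisons, and the fitted log2 change of 4.903 ± 0.45 in 20-week PLNR9C ventricles (edgeR adjusted p = 7.93e-07) depends on those 9 vehicle reads. In the fractions Hist1h3d reached 10 reads in JQ1 libraries only. Its passing in PLNR9C cardiomyocytes and in both non-myocyte comparisons is therefore no support for a rise. At 20 weeks fewer than 3 vehicle libraries reached 10 reads of it, so JQ1 libraries were needed to keep it there too. Hist2h2bb, an H2B gene, rose in all 6 comparisons in which it was tested, though the wild type non-myocyte call was kept in 8 of 12 fits with a library left out (edgeR adjusted p = 0.104 without JQ1 library 3). It had 6, 2 and 1 reads against 64, 81 and 36 in PLNR9C at 8 weeks, and 14, 5 and 7 against 55, 54 and 14 in PLNR9C non-myocytes, where the groups met at 14 reads. At 8 and 20 weeks fewer than 3 vehicle libraries reached 10 reads of Hist2h2bb. Hist1h4k, an H4 gene, had 0 to 3 reads in each ventricle vehicle library and 2 to 34 with JQ1. It was kept only through JQ1 libraries, so the 4 comparisons in which it passed are no support for a rise.

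The remaining core genes were mixed. Hist2h3c1, an H3 gene, rose in 5 of 8 comparisons; in non-myocytes it had 3.92, 4.55 and 3.69 CPM against 12.1, 10.4 and 6.31 in PLNR9C. Hist1h3g and Hist1h4h each rose in 4 of 6 comparisons, Hist1h2af in 2 of 4, Hist1h2bg and Hist2h2aa1 in 2 of 6, Hist2h3c2 in 2 of 8 and Hist1h2be, whose model overlaps Hist1h1e, in 1 of 8. At 20 weeks Hist1h3g reached 10 reads in JQ1 libraries only, so its passing there is no support for a rise. Fewer than 3 vehicle libraries reached 10 reads for Hist1h3g at 8 weeks, or for Hist1h2af, Hist1h2bg and Hist2h2aa1 in the tables where they passed. Hist1h2ba, an H2B gene known from testis and present only in the fraction table with at most 15 reads, was kept only through JQ1 libraries, and its passing in both non-myocyte comparisons is no support for a rise. Hist1h2ac in 4 tests and Hist1h4d in 2 did not pass; Hist1h4d was kept only in the 20-week table, with at most 15 reads. Hist2h2be, an H2B gene, was the core gene that fell. It had 3.82, 2.81 and 3.43 CPM in wild type vehicle ventricles at 8 weeks and 2.60, 2.36 and 1.38 with JQ1, and 1.33, 1.86 and 3.00 against 0.803, 1.035 and 0.747 in wild type non-myocytes. Its log2 fold changes there were -0.67 ± 0.24 and -1.26 ± 0.43 (edgeR adjusted p = 0.0414 and 0.0337), and the groups of both pairs did not overlap. The 8-week call was lost without wild type JQ1 library 2 or 3 or vehicle library 1 or 3, and the non-myocyte call without any wild type JQ1 library or vehicle library 2 or 3. Clustered histone genes are near-identical in sequence, so reads can be shared between copies and the values of single core genes are uncertain.

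Among variant genes, H3f3b (chromosome 11, 116021961 to 116024504, minus strand) rose in every sample type. At 8 weeks it had 59.1, 54.9 and 50.8 CPM with vehicle and 119.9, 151 and 118.5 with JQ1 in PLNR9C, and 53.5, 53.5 and 48.1 against 137, 142 and 134 in wild type. In non-myocytes it had 204, 226 and 262 against 518, 555 and 689 in PLNR9C, and 194, 249 and 247.5 against 510.3, 547 and 507.5 in wild type. In cardiomyocytes it had 49.65, 51.0 and 65.65 against 103, 179 and 153 in PLNR9C, and 40.1, 47.4 and 44.7 against 96.9, 96.3 and 95.7 in wild type. All JQ1 libraries lay above all vehicle libraries of their pair, and library 2, the highest JQ1 value in PLNR9C cardiomyocytes, was the one with high fibroblast markers. The 8 log2 fold changes ran from 1.13 ± 0.17 to 1.41 ± 0.09 (edgeR adjusted p at most 0.0054), and each call held when any single library was left out (96 of 96 fits). H3f3a rose less, by 0.49 to 0.82; at 20 weeks it had 37.3, 33.0 and 33.8 CPM against 59.7, 56.7 and 56.5 in PLNR9C. Its cardiomyocyte call in wild type (0.49 ± 0.12, edgeR adjusted p = 0.039) was lost in 8 of 12 such fits.

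H2afx encodes H2A.X, the variant that is phosphorylated around DNA breaks, and is a variant gene with a stem-loop. In cardiomyocytes it had 4.88, 4.04 and 6.06 CPM against 14.4, 14.5 and 15.0 in wild type, and 5.35, 6.83 and 3.56 against 15.4, 13.0 and 10.1 in PLNR9C. In 8-week ventricles it had 4.65, 4.07 and 4.31 against 14.03, 13.6 and 12.5 in PLNR9C. None of these groups overlapped. Its log2 fold changes ran from 1.15 ± 0.14 in wild type non-myocytes to 1.62 ± 0.13 in 8-week PLNR9C ventricles (edgeR adjusted p = 5.1e-05 and 6.9e-08).

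H2afz, 1 of the 2 H2A.Z genes, rose by 0.64 to 1.15. In non-myocytes it had 19.5, 18.6 and 21.2 CPM against 42.95, 40.3 and 45.5 in PLNR9C, and 16.6, 16.5 and 22.7 against 39.5, 44.3 and 40.2 in wild type. In wild type cardiomyocytes it had 6.29, 6.63 and 5.58 against 9.05, 9.91 and 9.86 (0.64 ± 0.16, edgeR adjusted p = 0.0446), a call lost in 9 of 12 fits with a library left out. H2afv, the other H2A.Z gene, passed in 2 of 8 comparisons with changes of -0.06 to 0.32, H2afj, a replacement H2A, in 1 of 8 with -0.12 to 0.55, and H2afy, which encodes macroH2A1, in 4 of 8 with 0.15 to 0.38. In 20-week PLNR9C ventricles H2afy had 22.2, 20.4 and 22.2 CPM against 29.05, 28.4 and 26.8.

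H2afy2 encodes macroH2A2, a variant with a large globular domain that is linked with silent chromatin, and it went the other way. It had 4.92, 4.07 and 4.20 CPM with vehicle and 2.82, 2.51 and 2.13 with JQ1 in 8-week PLNR9C ventricles, and 5.43, 6.24 and 4.67 against 2.55, 1.91 and 2.86 at 20 weeks. In non-myocytes it had 6.53, 6.55 and 6.53 against 1.67, 2.23 and 2.14 in PLNR9C, and 5.41, 5.59 and 7.29 against 2.61, 2.17 and 2.801 in wild type. The JQ1 libraries of these pairs lay below all their vehicle libraries. The log2 fold change was -1.70 ± 0.21 in PLNR9C non-myocytes and -1.26 ± 0.20 in wild type non-myocytes, -0.82 ± 0.18 and -0.93 ± 0.18 at 8 weeks, and -1.16 ± 0.19 in PLNR9C at 20 weeks (edgeR adjusted p at most 0.00181). These 5 calls held in 60 of 60 fits with a library left out. It did not pass in wild type ventricles at 20 weeks (-0.51 ± 0.20) or in cardiomyocytes (-0.71 ± 0.26 in PLNR9C, -0.25 ± 0.26 in wild type). H2afy2 (chromosome 10, 61738647 to 61783864, minus strand) overlaps Aifm2 on the other strand.

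**Figure D3:**
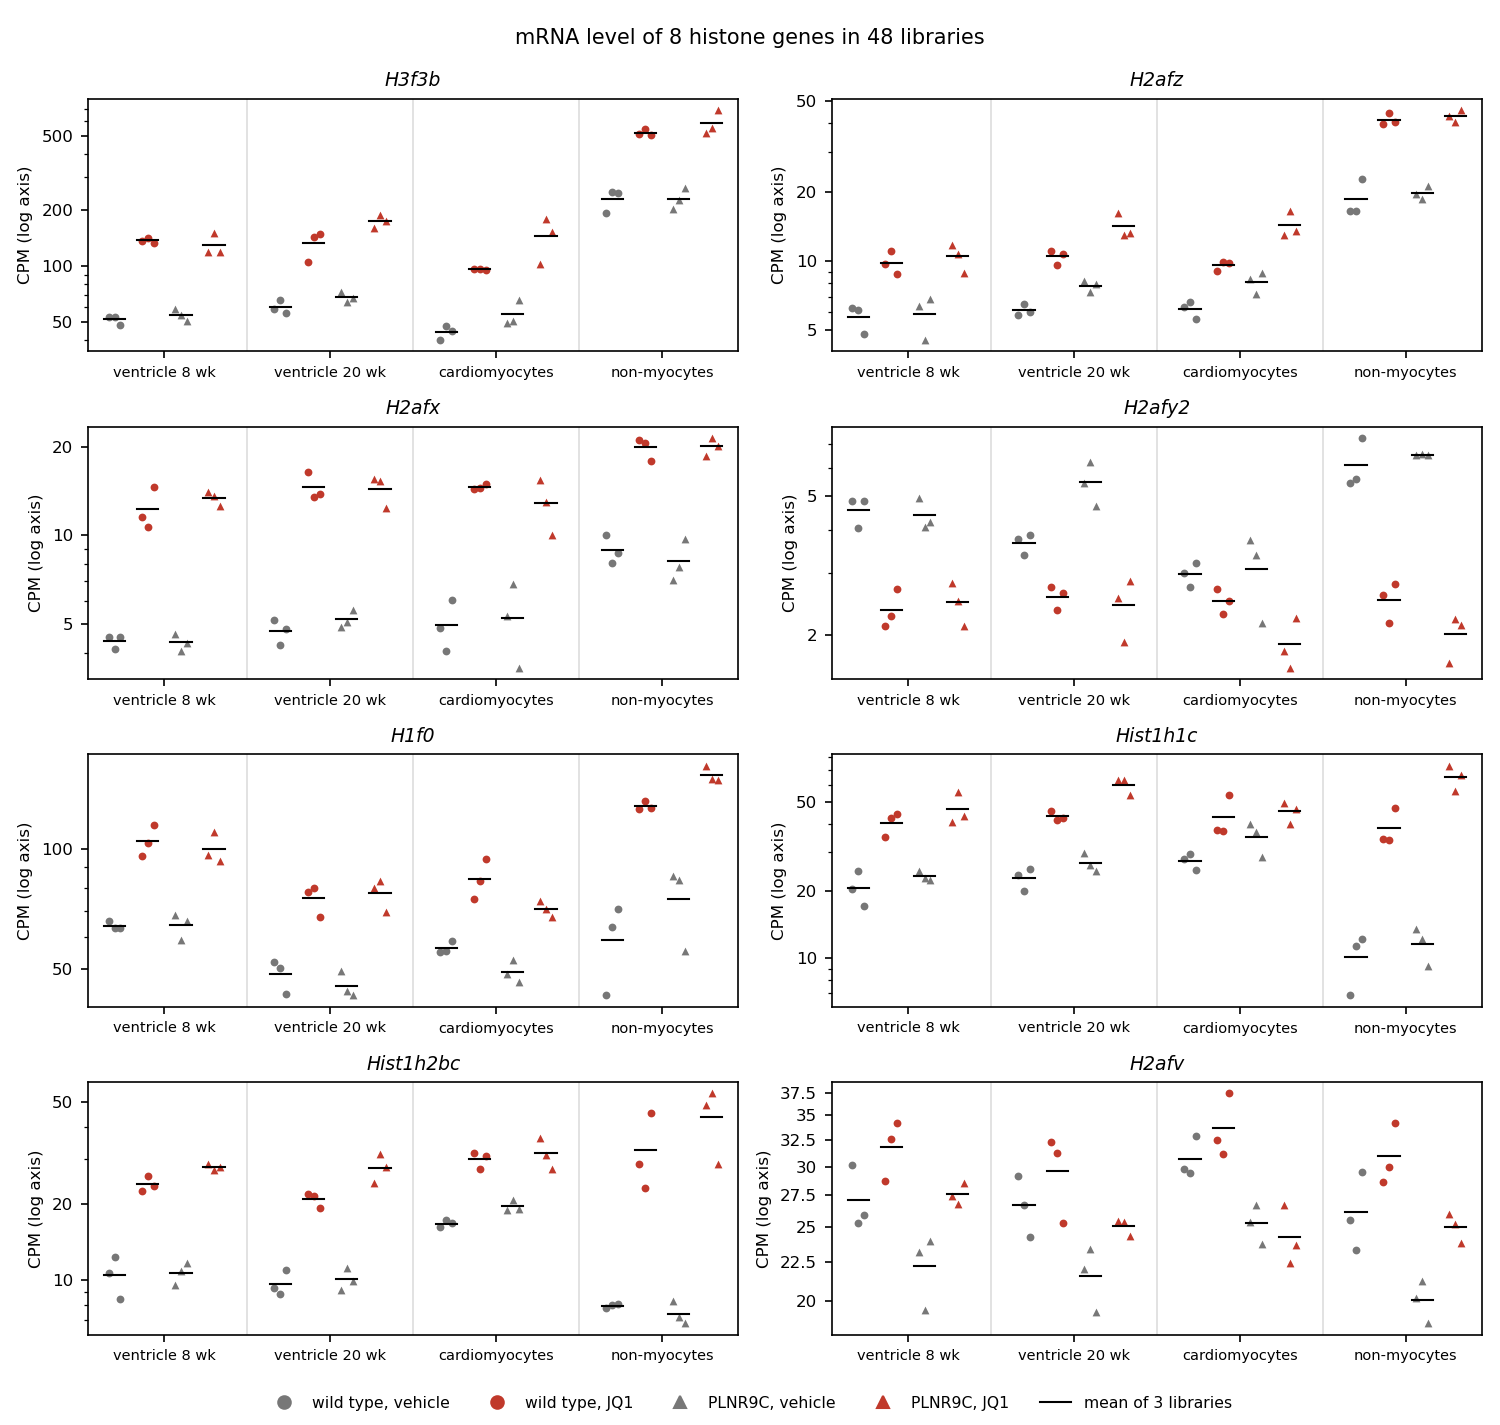
TMM-scaled CPM (log axis) of 8 histone genes in the 48 libraries (points) by group (x axis). H3f3b, H2afz, H2afx and H1f0 are higher with JQ1 in every sample type, H2afy2 is lower in ventricle and non-myocytes (6.53 to 6.55 with vehicle against 1.67 to 2.23 with JQ1 in PLNR9C non-myocytes), and H2afv passed the test in 2 of 8 comparisons.

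No member's JQ1 response was shown to differ between PLNR9C and wild type. The interaction of JQ1 with genotype in edgeR passed for 0 members in each sample type, where 0.00645% of all genes passed at 8 weeks, 0.357% at 20 weeks, and 0% in each cell fraction. At an unadjusted p under 0.05 there were 3 members (8 weeks), 4 (20 weeks), 1 (cardiomyocytes) and 0 (non-myocytes), and DESeq2 called 0, 1, 0 and 0. The gene DESeq2 called at 20 weeks was Hist1h3d (interaction 3.01 ± 0.70 on the log2 scale by edgeR, adjusted p = 0.0753), whose JQ1 libraries had 69 to 155 reads in PLNR9C and 18 to 40 in wild type; this gene is named after its values were seen. The median interaction of core genes was 0.50, 0.51, 0.37 and 0.57 in 8-week ventricles, 20-week ventricles, cardiomyocytes and non-myocytes, and that of variant genes between -0.04 and 0.08.

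With vehicle, the PLNR9C genotype changed few members, although it changed many genes at 20 weeks. At 8 weeks 0 of 28 members passed (edgeR; 14.4% of all genes, 7.86% higher and 6.5% lower), 4 had an unadjusted p under 0.05, and DESeq2 called 1. That gene was H2afv, which had 23.2, 19.5 and 23.95 CPM in PLNR9C and 30.2, 25.3 and 26.0 in wild type (-0.29 ± 0.10, edgeR adjusted p = 0.0504). At 20 weeks 2 members were higher and 5 lower of 30, against 44.7% of all genes (23.3% higher, 21.4% lower). H2afy2 was higher (5.43, 6.24 and 4.67 CPM against 3.77, 3.38 and 3.85; 0.57 ± 0.18), as was H2afz (8.21, 7.30 and 7.97 against 5.84, 6.53 and 5.98; 0.36 ± 0.13; edgeR adjusted p = 0.016 and 0.0342). In both genes the genotypes did not overlap.

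Hist2h2be was the member with the smallest p at 20 weeks. It had 1.47, 1.42 and 1.51 CPM in PLNR9C and 3.16, 2.98 and 2.43 in wild type (-0.96 ± 0.24, edgeR adjusted p = 0.00274), and its call held without any single library. The other 4 that fell were H2afv (-0.31 ± 0.11), Hist1h4h (-0.84 ± 0.30), Hist1h2af (-2.56 ± 0.96) and Hist1h3d (-1.63 ± 0.62), the last with 3 reads in each PLNR9C library against 9, 7 and 10. PLNR9C vehicle libraries also serve as the reference for JQ1 in PLNR9C, so the fall of Hist1h3d with genotype and its rise with JQ1 share 3 libraries. The count of 7 fell to 3 or 4 without PLNR9C vehicle library 1, 2 or 3 or wild type vehicle library 1 or 2. These directions also depend on the scaling: with CPM from plain library totals, which moved the median of all genes by 0.26, 7 members were higher (H2afj, H2afx, H2afy2, H2afz, H3f3b, Hist1h1c and Hist1h2bc) and 1 lower (Hist2h2be). In the same libraries 7 of 8 cardiomyocyte markers fell and all 8 fibroblast and 7 macrophage markers rose, and the part of this shift in the histone values was not tested.

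In the fractions, genotype changed 2 of 22 tested members in cardiomyocytes (26.1% of all genes; 14.3% higher, 11.8% lower) and 2 of 26 in non-myocytes (18.6%; 10.3% higher, 8.32% lower). In cardiomyocytes Hist1h3g had 0.255, 0.287 and 0.087 CPM in PLNR9C against 0.975, 1.03 and 1.99 in wild type, and Hist2h3c1 had 1.70, 2.16 and 1.30 against 3.99, 3.96 and 5.96 (-2.57 ± 0.57 and -1.41 ± 0.43, edgeR adjusted p = 0.00561 and 0.0277). The count was 1 without vehicle library 3 of either genotype, and the Hist2h3c1 call was also lost without PLNR9C vehicle library 1. In non-myocytes H2afj was higher (9.23, 7.46 and 7.57 against 3.73, 6.18 and 5.75; 0.63 ± 0.20) and H2afv lower (20.2, 21.3 and 18.7 against 25.55, 23.4 and 29.5; -0.38 ± 0.12), with edgeR adjusted p = 0.0423 and 0.0337. That count was 0 without wild type vehicle library 1 or 3 or PLNR9C vehicle library 1 or 2, and 1 without PLNR9C vehicle library 3, PLNR9C JQ1 library 3 or wild type JQ1 library 2. Over the 4 sample types the genotype values of H2afv were between -0.38 and -0.28, and it passed at 20 weeks and in non-myocytes.

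Levels of 71.4% of the tested members differed between cardiomyocytes and non-myocytes, a smaller share than over all genes. In a joint fit of the 24 fraction libraries, averaged over the 4 treatment and genotype groups, 14 of 28 members were higher and 6 lower in cardiomyocytes, where 89.4% of all genes differed (41.9% higher, 47.5% lower). Levels in this paragraph are CPM on the joint TMM scale over the 12 libraries of a fraction. Hist1h4h, an H4 gene, ran from 1.14 to 5.54 (median 2.59) in cardiomyocytes and from 0 to 1.06 (median 0.139) in non-myocytes, a log2 difference of 3.92 ± 0.30, with no overlap. Hist1h1e, which encodes H1.4, had a median of 3.20 against 0.597 (2.36 ± 0.19), also without overlap. Hist1h1c had medians of 51.0 and 18.1 (1.499 ± 0.10), Hist1h2bc 31.8 and 11.98 (1.30 ± 0.10), and H2afv 37.8 and 18.5 (0.996 ± 0.055), the last without overlap.

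The 6 genes lower in cardiomyocytes included the most abundant member. H3f3b ran from 54.0 to 235 (median 107.5) in cardiomyocytes and from 145 to 495 (median 287) in non-myocytes, a log2 difference of -1.39 ± 0.08. H2afz ran from 7.56 to 21.66 and from 12.4 to 33.9 (-0.80 ± 0.07). H1fx had medians of 0.769 and 2.24 (-1.47 ± 0.17), H2afy 32.6 and 40.8 (-0.31 ± 0.05) and H1foo 0.135 and 1.08 (-2.19 ± 0.42). The edgeR adjusted p of all 10 genes named so far in this comparison was at most 3.86e-05. These differences depend on the scaling. With CPM from plain library totals the median of all genes moved by -0.83, and 9 members were higher and 15 lower in cardiomyocytes. Under that scaling H1f0 (0.23 to -0.60), H2afj (0.33 to -0.50), H2afx (0.20 to -0.64), H2afy2 (0.28 to -0.54) and H3f3a (0.09 to -0.74) changed direction, while Hist1h4h, Hist1h1e, Hist1h1c, Hist1h2bc and H2afv stayed higher in cardiomyocytes, by 3.12, 1.54, 0.67, 0.47 and 0.16. On the TMM scale H2afx, H3f3a and Hist2h2aa1 also passed as higher in cardiomyocytes without PLNR9C JQ1 cardiomyocyte library 2, and without wild type JQ1 non-myocyte library 3 Hist1h3d passed as higher and Hist2h2bb was no longer called lower.

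The response to JQ1 differed between the fractions for 6 of 28 members, averaged over both genotypes, where 9.07% of all genes passed this test (5.62% with the more positive change in cardiomyocytes and 3.44% with the more negative). The change was more negative in cardiomyocytes for Hist1h1c (difference -1.64 ± 0.20), Hist1h2bc (-1.47 ± 0.21), Hist1h4i (-1.72 ± 0.35), Hist1h3d (-1.87 ± 0.59) and Hist3h2a (-0.78 ± 0.23), that is, these genes rose more in non-myocytes. It was more positive for H2afy2 (1.05 ± 0.21), which fell in non-myocytes. The calls of Hist1h1c, Hist1h2bc, Hist1h4i and H2afy2 (edgeR adjusted p = 1.82e-05, 9.5e-05, 0.00314 and 0.00306) held in all 24 fits with a library left out. Those of Hist1h3d and Hist3h2a (edgeR adjusted p = 0.0488 and 0.0369) held in 5 and 9 of 24. In the fractions Hist1h3d reached 10 reads in JQ1 libraries only, so its response is tied to its selection. The count of 6 was 4 without wild type JQ1 non-myocyte library 3 (Hist1h3d and Hist3h2a lost) and 9 without PLNR9C JQ1 cardiomyocyte library 2 (H1f0, H2afz and Hist2h3c1 added, edgeR adjusted p = 0.0439, 0.0412 and 0.0375). The differences for H3f3b (0.04 ± 0.16) and H2afx (0.25 ± 0.19) did not pass, and neither did those for H1f0, H2afz and H3f3a (-0.48 ± 0.15, -0.35 ± 0.13 and -0.14 ± 0.11).

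Marker RNA moved with treatment in the fractions. The cardiomyocyte markers of wild type non-myocytes summed to 2534 to 3912 CPM with vehicle and 6485 to 8188 with JQ1, and 6 of 8 passed. In PLNR9C non-myocytes they summed to 1660 to 2179 with vehicle and to 1175, 1401 and 3927 with JQ1. There 0 of 8 passed by edgeR, also at an unadjusted p under 0.05. There 3 of 6 lymphocyte markers fell (131 to 167 against 77.8 to 114), 2 of 7 macrophage markers fell (3437 to 4201 against 3341 to 3821) and 3 of 6 smooth muscle and pericyte markers rose (1235 to 1497 against 1354 to 1777). In wild type non-myocytes 4 of 7 macrophage markers fell (1275 to 1509 against 1013 to 1173), and of 6 lymphocyte markers 1 rose and 2 fell. Over both genotypes, the JQ1 difference between fractions had a median of -0.80 for cardiomyocyte markers and 0.81 for fibroblast markers on the log2 scale. The part of these marker shifts in the histone differences was not tested. The genotype difference between fractions passed for 1 member, Hist2h3c1 (-1.67 ± 0.51, edgeR adjusted p = 0.0455; 8.33% of all genes, 4.09% higher and 4.24% lower), and held in 10 of 24 fits with a library left out.

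**Figure D4:**
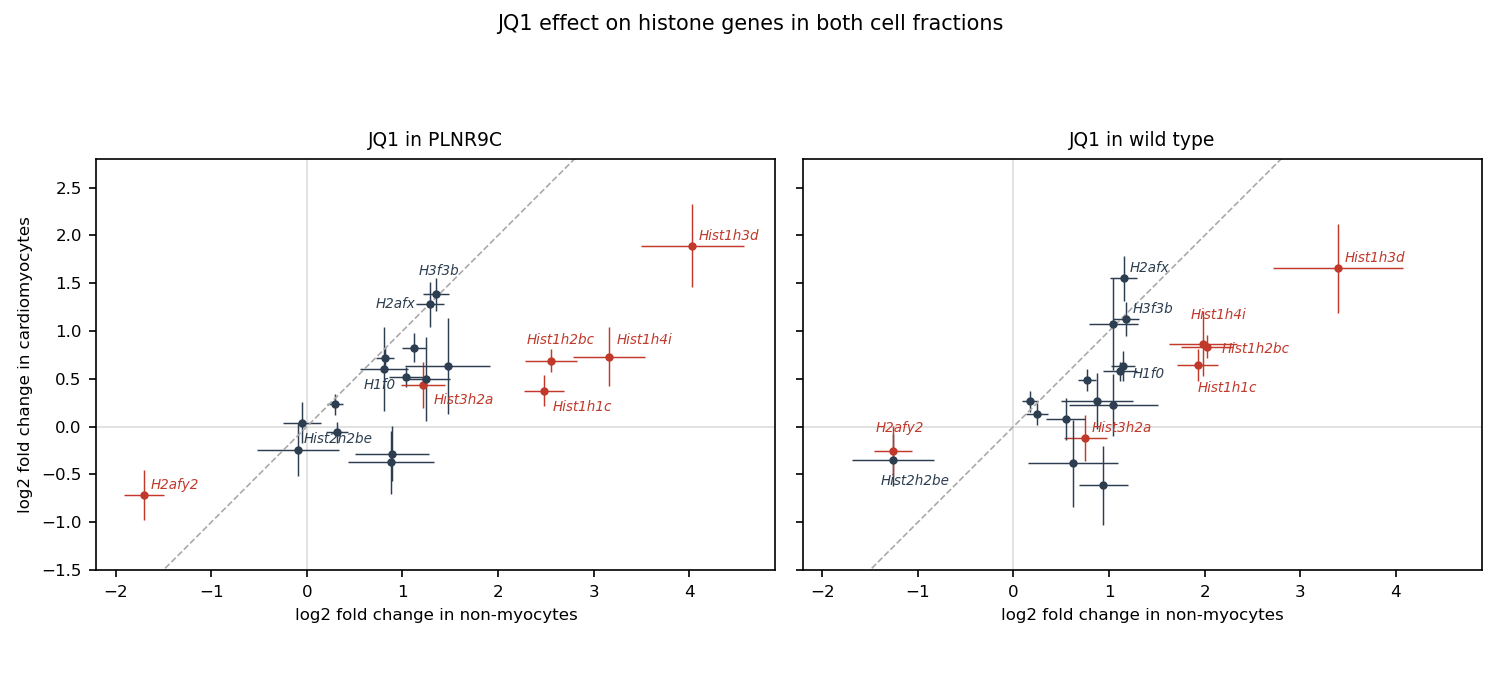
JQ1 log2 fold change of histone genes in cardiomyocytes (y axis) against non-myocytes (x axis), with standard errors as bars, in PLNR9C (left) and wild type (right); red marks genes whose response differed between the fractions and the dashed line marks equal change. H3f3b lies near the line, and Hist1h1c, Hist1h2bc, Hist1h4i, Hist1h3d and Hist3h2a lie below it. Hist1h3d reached 10 reads in JQ1 libraries only.

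Members with and without a match to the stem-loop pattern both rose with JQ1. Without a stem-loop means here only that the searched pattern was not found in an annotated transcript. Transcripts annotated too short and variant stem-loops were not examined. The set without includes clustered core genes such as Hist1h2af, Hist1h3g, Hist1h4k and Hist2h2bb. In 20-week PLNR9C ventricles 13 of 15 with a stem-loop rose and none fell, against 10 up and 1 down of 15 without. In wild type ventricles of that age the counts were 7 of 15 and 10 of 15. In PLNR9C non-myocytes they were 8 of 11 with a stem-loop, against 11 up and 1 down of 15 without, and in PLNR9C cardiomyocytes 2 of 10 and 5 of 12. The median log2 fold change was 1.47 with and 0.81 without a stem-loop in 20-week PLNR9C ventricles, and 1.25 and 0.90 in PLNR9C non-myocytes. In the same 4 comparisons 15.9%, 12.3%, 16.7% and 6.14% of all genes rose. The difference between these sets was not tested, nor was how fully RNA without a poly(A) tail was captured. The counts and medians include members that reached 10 reads in JQ1 libraries only, and they were not repeated without them. At 20 weeks these were Hist1h4d with a stem-loop and Hist1h3g and Hist1h4k without. In the fractions they were Hist1h3d with a stem-loop and, in non-myocytes, Hist1h2ba and Hist1h4k without. Among the 6 members whose JQ1 response differed between the fractions, Hist1h1c, Hist1h3d, Hist1h4i and Hist3h2a carried a stem-loop and Hist1h2bc and H2afy2 did not.

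Cell cycle genes are given here because clustered histone genes are transcribed in S phase. Of 30 genes of S phase and mitosis, 19 rose and none fell with the PLNR9C genotype at 20 weeks (median 0.87), where 23.3% of all genes rose. Among histone genes 2 rose and 5 fell in that comparison, or 7 rose and 1 fell with plain library totals. With JQ1 the same list was mixed: 4 up and 3 down in PLNR9C and 4 up and 7 down in wild type at 8 weeks, 2 up and 5 down and 4 up and 3 down at 20 weeks, 4 up and 4 down and 8 up and 7 down in non-myocytes, and in cardiomyocytes 1 up and 1 down in PLNR9C and 1 up in wild type, of 28. Of all genes, 12.3% to 15.9% rose and 14.9% to 17.7% fell with JQ1 in the ventricle comparisons. In PLNR9C and wild type non-myocytes 16.7% and 18% rose and 19.5% and 20% fell. In cardiomyocytes 6.14% and 1.7% rose and 4.33% and 1.93% fell, in the same order. The median of the list was between -0.14 and 0.22 in the 8 JQ1 comparisons. Pcna, the sliding clamp of DNA polymerase, rose in all 8 (0.55 to 0.84), whereas Mcm3, a subunit of the replicative helicase, fell in the 6 ventricle and non-myocyte comparisons (-0.77 to -1.22).

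Among histone chaperones, which carry and deposit histones, 6 of 23 rose in each of the 4 ventricle comparisons with JQ1, 9 in each of the 2 non-myocyte comparisons, and 3 and 2 of 22 in cardiomyocytes, while 0 to 4 fell. Of all genes 12.3% to 15.9% rose and 14.9% to 17.7% fell in the ventricle comparisons. In non-myocytes 16.7% and 18% rose and 19.5% and 20% fell, and in cardiomyocytes 6.14% and 1.7% rose and 4.33% and 1.93% fell. Nasp, which holds the H3 and H4 pool, rose in all 8 comparisons (0.57 to 1.05), as did Ep400, a remodeller that deposits H2A.Z and H3.3 (0.63 to 0.97). Ssrp1, a subunit of the FACT chaperone, fell in ventricle and non-myocytes (-0.31 to -0.93). Of 12 tested factors of histone gene transcription and histone mRNA processing, 3 to 6 rose in each ventricle and non-myocyte comparison and 1 and 0 in cardiomyocytes; 0 to 2 fell. Slbp, which binds the histone stem-loop, rose in all but wild type cardiomyocytes (0.46 to 0.71; 0.43 there), and Ybx1 in ventricle and non-myocytes (0.38 to 0.75). Among 11 genes of the BET proteins and the elongation factor P-TEFb, Hexim1, an inhibitor of P-TEFb that rises on BET inhibition in many cell types, rose in all 8 (1.33 to 2.58), as did Brd2 (0.53 to 1.12).

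**Figure D5:**
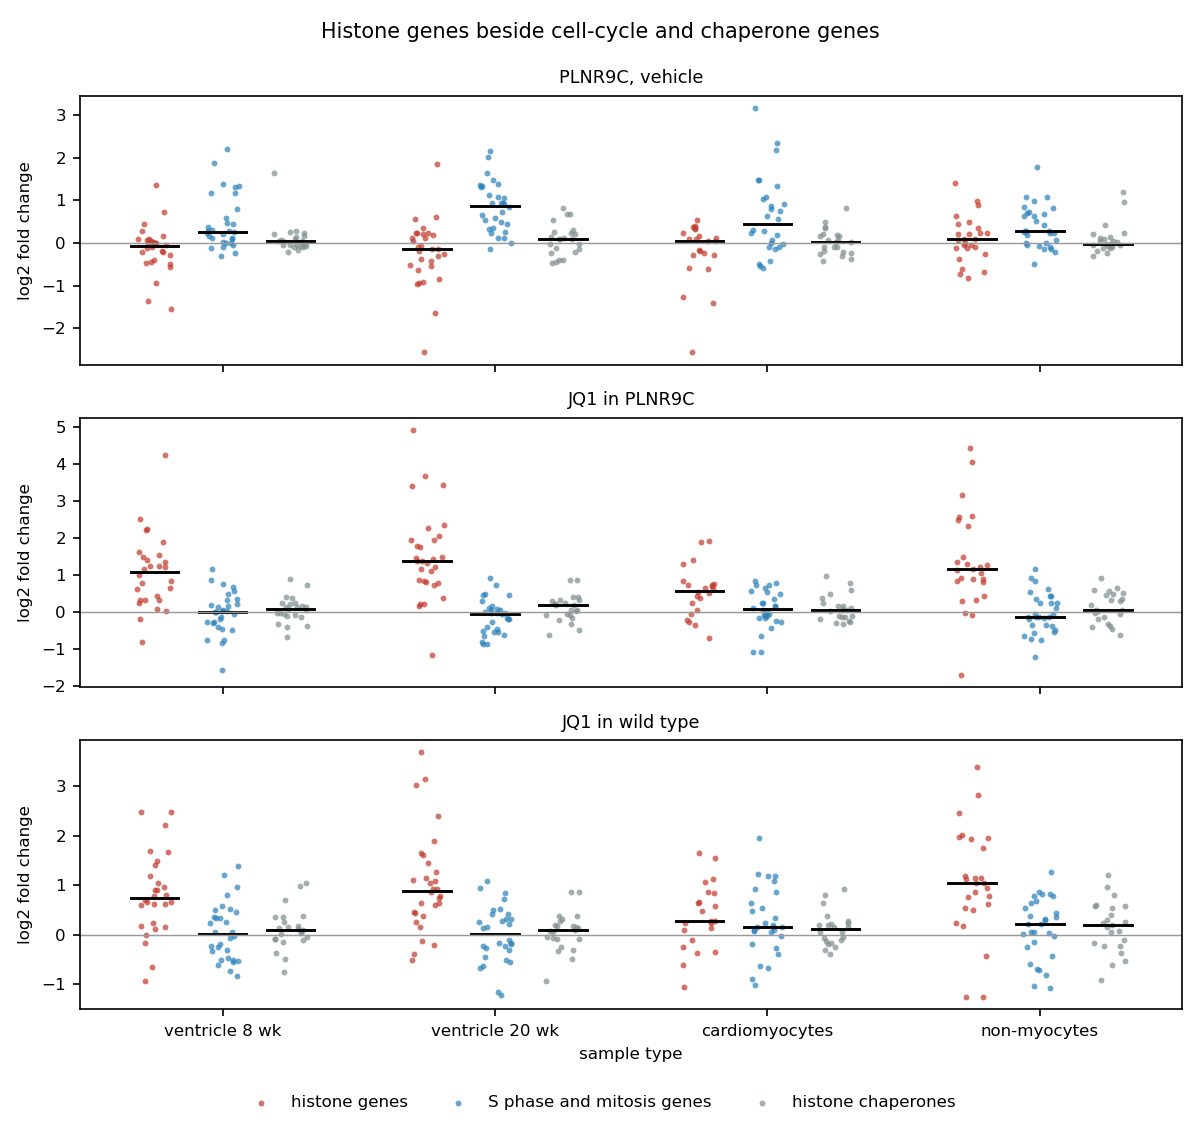
JQ1 and genotype log2 fold changes of single histone genes, genes of S phase and mitosis and histone chaperones (points; bar, median) in the 4 sample types, for JQ1 in PLNR9C, JQ1 in wild type and PLNR9C against wild type. The histone medians with JQ1 are 0.27 to 1.36, those of the cell cycle genes -0.14 to 0.22, and with genotype at 20 weeks -0.14 for histones and 0.87 for cell cycle genes.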

How the data were processed

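Per the labels' protocols, TRIzol RNA was used with Nextera library preparation. Selection or priming by poly(A) was not taken into account here. Histone mRNA without a poly(A) tail may therefore be counted less fully than that of replacement histones. The authors deposited whole-number read counts per gene and RPKM values; alignment tool STAR 2.4.1b and build GRCm38/mm10 come from the submitters' processing notes. The counter, annotation and strand setting are not given there. Samples were matched to table columns by their titles. Counts were tested with edgeR 4.0.16 (R 4.3.3; limma 3.58.1): TMM scaling, filterByExpr by group, robust quasi-likelihood fit of all 12 libraries of a sample type or all 24 fraction libraries, Benjamini-Hochberg adjustment over all genes tested, threshold 0.05. SE is the log2 fold change divided by the root of F. RPKM served only to compare genes. Alternatives were DESeq2 1.42.0, RLE scaling, no filter, a replicate block, leaving out each library and, chosen after seeing the data, plain library totals. The scripts were tested on simulated data.

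The members and gene lists were chosen with earlier results of these data known. Named were a panel of 11 genes (H1f0, Hist1h1c, Hist1h2bc, H2afz, H2afv, H2afx, H2afj, H2afy, H2afy2, H3f3a, H3f3b), up to 4 members with the smallest p per direction and comparison, the 3 most abundant per class, members kept in 1 table, and up to 3 genes per list; other members were named after their values were seen, to account for all 32. Intervals and tests cover the spread between these libraries.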

Additional observations from a re-analysis of the deposited data

Results flagged for a closer look

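The JQ1 response of 6 members differed between cardiomyocytes and non-myocytes in a direct test of that difference. On the log2 scale, cardiomyocytes minus non-myocytes, it was -1.64 for Hist1h1c, -1.47 for Hist1h2bc, -1.72 for Hist1h4i, -1.87 for Hist1h3d and -0.78 for Hist3h2a, genes that rose more in non-myocytes. It was 1.05 for H2afy2, which fell more in non-myocytes. The PLNR9C effect with vehicle differed between the fractions for Hist2h3c1, by -1.67. The edgeR adjusted p was 1.82e-05, 9.5e-05, 0.00314, 0.0488, 0.0369, 0.00306 and 0.0455 in that order. The values for Hist1h3d, Hist3h2a and Hist2h3c1 rest on calls that were kept in 5, 9 and 10 of 24 fits with a library left out. Hist1h3d also reached 10 reads in JQ1 libraries only, so its response is tied to its selection.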

How the results depend on the processing

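DESeq2 kept the direction and the side of the threshold for 220 of 224 gene results, RLE scaling for 222, no filter for 216 and plain library totals for 189. With 1 library left out, 3008 such results were kept, 118 lost and 27 gained a call, and 3 reversed. Counts of called members moved by more than 1.5 times as follows. The 8-week genotype count went from 0 to 1 with RLE scaling, without a filter, with a replicate block and with DESeq2, and the 20-week interaction from 0 to 1 without a filter and with DESeq2. With plain library totals the counts for genotype went from 2 to 1 in cardiomyocytes and in non-myocytes, for JQ1 in wild type cardiomyocytes from 7 to 3, and for the genotype difference between fractions from 1 to 0. The non-myocyte genotype count was 1 without a filter and with a replicate block. With 1 library left out the counts ranged, for genotype, from 0 to 1 (8 weeks), 3 to 7 (20 weeks), 1 to 3 (cardiomyocytes) and 0 to 2 (non-myocytes); for JQ1 in PLNR9C, 19 to 21, 21 to 25, 6 to 8 and 14 to 20; for JQ1 in wild type, 14 to 19, 13 to 17, 3 to 7 and 13 to 19; and 0 to 1 for the 20-week interaction, 19 to 23 between fractions, 4 to 9 for the JQ1 difference and 0 to 1 for the genotype difference between fractions. Log2 values that reversed with library totals were, for genotype at 8 weeks, H2afy 0.037 and H3f3a 0.11, at 20 weeks H1f0 0.17, H2afy 0.11 and H3f3a 0.20, between fractions H1f0 -0.60, H2afj -0.50, H2afx -0.64, H2afy2 -0.54 and H3f3a -0.74, for JQ1 in wild type non-myocytes H2afy -0.013, and for the genotype difference between fractions H2afy 0.20. With 1 library left out, the genotype value of H3f3a ran from -0.11 to 0.098 at 8 weeks (reversed without PLNR9C vehicle 2) and from -0.12 to 0.0375 at 20 weeks (reversed without wild type vehicle 1), and that of Hist1h2bc from -0.12 to 0.16 at 8 weeks (reversed without wild type vehicle 3). The causes were not tested. The replicate numbers were not taken to pair the libraries: 1, 1, 3 and 5 of 18 same-numbered pairs had a correlation of deviations over 0.1 in the 4 sample types, and 23 of 84 in the fractions (highest 0.32). The replicate block otherwise moved no count by over 1.5 times except the genotype difference between fractions, from 1 to 0. Depth limits the low core genes, several of which had under 10 reads in vehicle libraries.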
